A study of Homo sapiens with 24 samples.

Results

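The 10 genes described here encode factors of ribosome rescue, ribosome-associated quality control and translation termination: ZNF598, ASCC2, ASCC3, LTN1, NEMF, PELO, HBS1L, ABCE1, ETF1 and GSPT1. They were found by symbol, 10 of the 19692 entries of each of the 2 deposited count tables. The libraries came from HEK293, an established line of human embryonic kidney cells. The tested line overexpressed ZC3H7B, a CCCH-type zinc finger RNA-binding protein (ZC3H7B-OE), and the control line overexpressed Flag/HA. Both lines received the same treatment: 100 µM 4-thiouridine (s4U, a uridine analogue built into new RNA) with 1 µg/mL doxycycline for 24 h, then 10 mM uridine as a chase. Poly(A) RNA was collected after 0, 2, 4 or 6 h of this chase, with 3 libraries in each of the 8 groups. After alkylation s4U reads as C, so a read that carries T>C conversions, here a labelled read, is meant to mark RNA made during the pulse. The background rate of such conversions and the labelling that continued after the chase began were not measured here. The labels used here name neither the promoter of the constructs nor whether a line is 1 clone, and they call the libraries replicates without saying that they were separate cultures. P-values therefore measure only the spread between these libraries, which may be technical.

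Ribosomes that collide on an mRNA are sensed by the E3 ubiquitin ligase ZNF598, which marks proteins of the small subunit. The ASC-1 complex, which contains the helicase ASCC3 and the ubiquitin-binding ASCC2, then takes the leading collided ribosome apart. PELO with the GTPase HBS1L rescues ribosomes stalled at the end of an mRNA, and the ATPase ABCE1 splits the subunits after rescue and after termination. On a split large subunit that still holds a nascent chain, NEMF recruits the E3 ligase LTN1, which marks the chain for degradation. At a stop codon the release factor ETF1 (eRF1) reads the codon and frees the peptide together with its GTPase partner GSPT1 (eRF3a).

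The series concerns codon-dependent control of mRNA, so stretches of coding sequence are shown for members that differed in the last base of their codons and in how they behaved below. Each is the 40 codons at the middle of the longest GENCODE v29 coding sequence, read 5′ to 3′, and capitals mark a last codon base that is G or C.
ZNF598: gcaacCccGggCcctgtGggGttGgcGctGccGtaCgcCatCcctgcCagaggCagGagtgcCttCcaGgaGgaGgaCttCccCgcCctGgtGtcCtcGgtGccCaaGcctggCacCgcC
ASCC2: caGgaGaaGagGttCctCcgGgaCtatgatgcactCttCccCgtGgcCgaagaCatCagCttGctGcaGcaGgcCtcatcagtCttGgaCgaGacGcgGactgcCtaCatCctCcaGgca
PELO: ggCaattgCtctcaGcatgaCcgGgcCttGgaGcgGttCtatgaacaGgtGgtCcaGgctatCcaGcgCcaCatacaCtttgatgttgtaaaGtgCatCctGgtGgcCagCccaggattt
LTN1: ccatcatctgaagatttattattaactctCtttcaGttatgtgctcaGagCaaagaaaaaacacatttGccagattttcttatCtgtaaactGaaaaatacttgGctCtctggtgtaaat
ETF1: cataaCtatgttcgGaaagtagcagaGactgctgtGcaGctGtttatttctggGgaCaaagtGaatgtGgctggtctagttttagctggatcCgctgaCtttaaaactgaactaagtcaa
Over the whole coding sequence, codons ending in G or C made up 80.0% of 849 codons in ZNF598 on chromosome 16, 69.5% of 757 in ASCC2 on chromosome 22 and 68.8% of 385 in PELO on chromosome 5. The share was 46.9% in GSPT1 on chromosome 16, 38.2% in ETF1 on chromosome 5, 35.4% in LTN1 on chromosome 21 and 34.9% in ASCC3 on chromosome 6. NEMF on chromosome 14 had 33.3%, HBS1L on chromosome 6 had 33.3% and ABCE1 on chromosome 4 had 31.4%. In the printed stretches 34 of 40 codons end in G or C in ZNF598, 32 in ASCC2, 26 in PELO, 12 in ETF1 and 9 in LTN1.

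Sequencing gave each library 1502068 to 3676254 reads (830574 to 1579744 labelled), and the members took 0.0915% to 0.239% of the reads of a library. Levels are given as CPM, read counts scaled to library size with edgeR's trimmed mean of M-values (TMM), and folds are log2 values of ZC3H7B-OE over control, or of 6 h over 0 h. The control 0 h library of replicate 3 stood apart: its scaling factor was 0.726, against 0.926 to 1.08 in the other 23, and 11032 genes had a read, against 12005 to 13201. ZC3H7B itself averaged 328 ± 75.0 CPM in ZC3H7B-OE and 269 ± 74.0 CPM in control (SD, n = 12 each), higher by 0.28 on the log2 scale (SE 0.08, adjusted p = 0.00347 in edgeR). Of the HEK293 markers, 6 of 8 had at least 10 reads and summed to 126 to 373 CPM in ZC3H7B-OE libraries, against 228 to 595 CPM in control. LIN28B made up most of that sum, at 60.9 to 278 CPM in ZC3H7B-OE and 177 to 473 CPM in control, while KRT8 overlapped between the lines at 5.61 to 21.4 CPM in ZC3H7B-OE and 5.97 to 28.4 CPM in control. KRT8, KRT18, CDH2 and LIN28B had reads in all 24 libraries. The rest of the list was weaker: VIM had 241 reads in 23 libraries, and PAX2 reached the 10 reads with 13 in 6 libraries. NEFM had 2 reads in all and NEFL had no entry. The part of the HEK293 markers in the results was not tested. PTPRC, CD3E, COL1A2, DCN, CDH5, VWF and KRT14, which define other cell types, were at 0 in all 24 libraries. Other markers on the same lists were not: CD68 had 4195 reads in all, EPCAM 1281, CD79A 184 in 20 libraries and COL1A1 67 in 21 libraries.

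Between the lines, the members moved both ways. Averaged over the chase, the termination factors ETF1 and GSPT1 and the rescue GTPase HBS1L fell in ZC3H7B-OE. The collision sensor ZNF598, the ubiquitin-binding ASC-1 subunit ASCC2 and the ligase LTN1 rose. ASCC3, NEMF and PELO did not pass the test and ABCE1 could not be tested. Thus 3 of the 9 members that passed the filter on low counts rose and 3 fell in edgeR's quasi-likelihood test (adjusted p under 0.05), where 20.4% of the 10038 entries tested rose and 25.4% fell. The members' median log2 fold change was -0.07, against 0.01 over all entries tested. In bulk RNA, less of an mRNA per cell and fewer cells that hold it cannot be told apart. Where the lines are said below to overlap or not, 3 libraries are set against 3. How many of all entries did not overlap in this way was not counted, so these statements are descriptions.

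**Figure D1:**
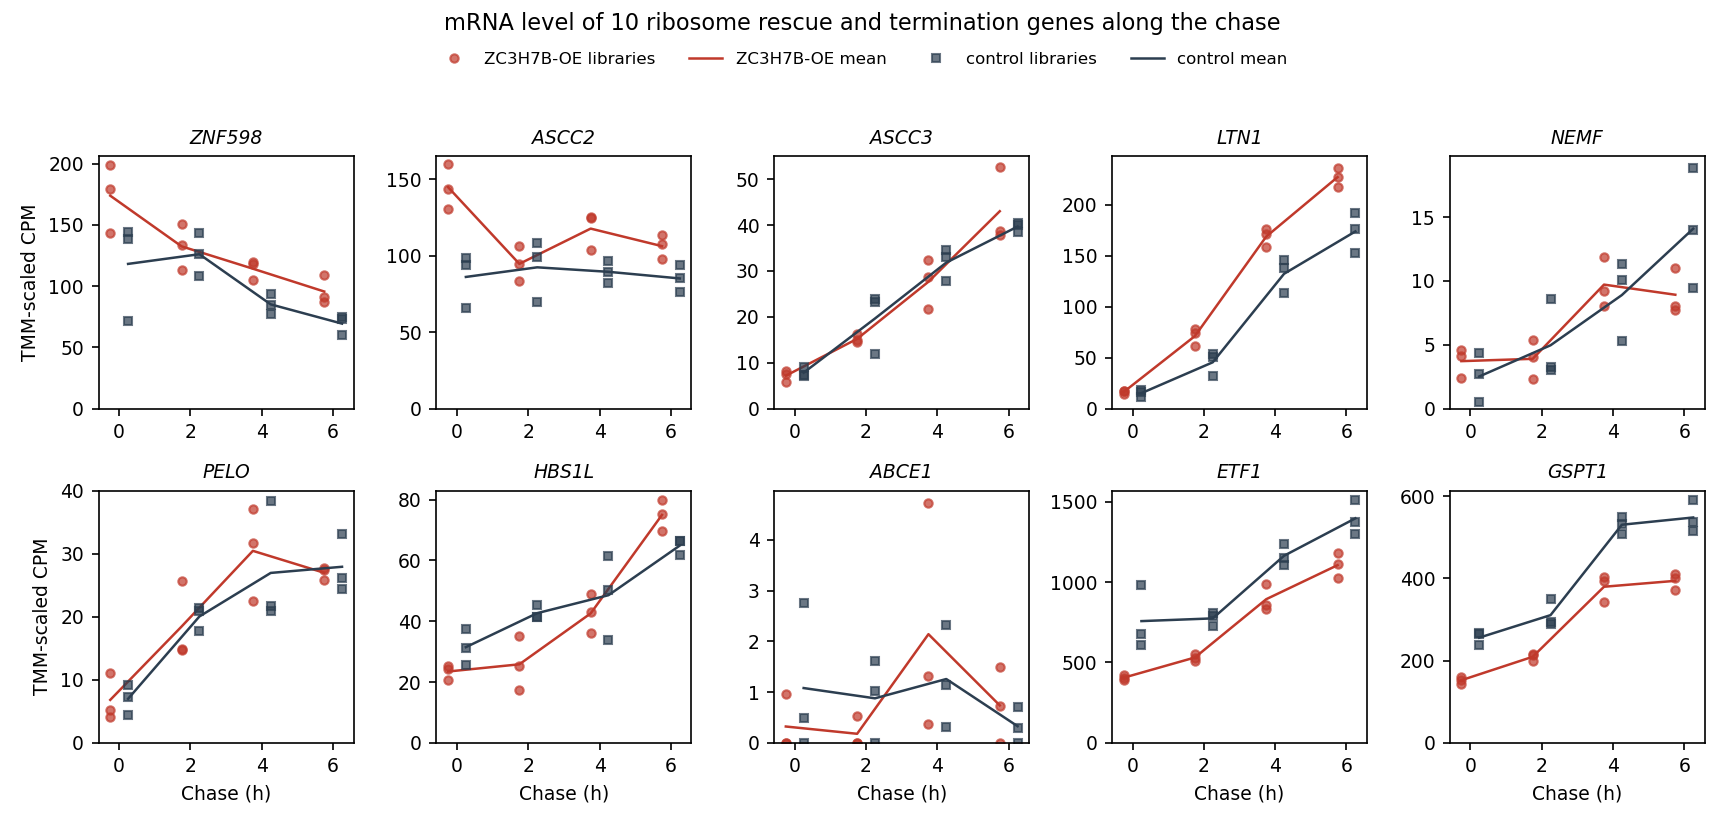
Level of each member (TMM-scaled CPM, linear axes that start at 0 and differ between panels) by hour of chase in ZC3H7B-OE libraries (circles, left) and control libraries (squares, right), 3 per line and time, with lines through the means. ETF1 and GSPT1 libraries of ZC3H7B-OE sit below every control library of the same hour, and ABCE1 stays under 5 CPM throughout.

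ETF1, the release factor that reads all stop codons, had the lower values in ZC3H7B-OE at each time. At 0 h it stood at 400.4, 425 and 391 CPM in the ZC3H7B-OE libraries, against 676, 612 and 985 CPM in control. At 2 h the values were 554, 527 and 512 CPM in ZC3H7B-OE, against 808, 786 and 729 CPM in control. The groups did not overlap at either time, and the highest control value, 985 CPM, came from the library that stood apart. At 4 h ETF1 had 991, 833 and 857 CPM in ZC3H7B-OE, against 1152, 1106 and 1234 CPM in control. After 6 h the libraries held 1023, 1114 and 1181 CPM in ZC3H7B-OE, against 1514, 1302 and 1376 CPM in control. Again no ZC3H7B-OE library reached a control library of its hour. The mean log2 fold change was -0.54 (SE 0.07, adjusted p = 3.3e-08), a fold of 0.688. For 0, 2, 4 and 6 h it was -0.90, -0.54, -0.38 and -0.34 (SE 0.13 each), with adjusted p-values of 4.0e-06, 0.00567, 0.0383 and 0.0717. The 4 h call was lost in 5 of the 6 fits that left out 1 library of that time, with adjusted p-values up to 0.134, all but that without ZC3H7B-OE replicate 1, and with no filter on low counts (adjusted p = 0.102). Without the control 0 h library that stood apart the 0 h value was -0.67 and the mean value -0.49, both still called. Annotation lists 3 pseudogene loci of ETF1, and reads shared with them could not be separated.

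GSPT1, the GTPase that works with ETF1, was lower as well. It had 153, 161 and 143 CPM in ZC3H7B-OE at 0 h, against 237, 264 and 267 CPM in control. It had 199.7, 215 and 213 CPM in ZC3H7B-OE at 2 h, against 349.6, 289 and 293 CPM in control. The groups stayed apart at both times. It had 403, 342 and 394 CPM in ZC3H7B-OE at 4 h, against 533, 509 and 549.8 CPM in control. It had 372, 401 and 410.1 CPM in ZC3H7B-OE at 6 h, against 591, 516 and 538 CPM in control. All 12 ZC3H7B-OE libraries were thus below the 3 control libraries of their hour. The mean log2 fold change was -0.57 (SE 0.06, adjusted p = 1.5e-09), and the call held at 0, 2, 4 and 6 h with values of -0.75, -0.57, -0.48 and -0.48 (adjusted p-values of 1.8e-05, 0.00141, 0.00328 and 0.00465). GSPT2, the close copy of GSPT1, did not pass the test with a log2 fold change of -0.14 (SE 0.21, adjusted p = 0.607), and reads may be shared between the copies.

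ZNF598 showed the opposite direction. At 0 h its level was 143, 199 and 179.7 CPM in ZC3H7B-OE, against 144, 139 and 71.5 CPM in control, and at 2 h it was 151, 133 and 113 CPM in ZC3H7B-OE, against 144, 126 and 109 CPM in control. The lines overlapped at these 2 times, and the lowest control value was that of the library that stood apart. At 4 h ZNF598 stood at 118, 119.8 and 105 CPM in ZC3H7B-OE, against 77.0, 84.7 and 93.9 CPM in control. At 6 h it stood at 87.1, 90.8 and 109 CPM in ZC3H7B-OE, against 75.1, 60.4 and 73.0 CPM in control. At these later times the lines were apart. The log2 fold change was 0.54 (SE 0.19, adjusted p = 0.0285) at 0 h, 0.07 (SE 0.19, adjusted p = 0.885) at 2 h, 0.43 (SE 0.19, adjusted p = 0.115) at 4 h and 0.46 (SE 0.19, adjusted p = 0.0947) at 6 h. The 0 h call was lost in 3 of 6 fits that left out 1 library of that time, namely without control replicate 3, the library that stood apart (0.30, adjusted p = 0.184), without ZC3H7B-OE replicate 2 and without ZC3H7B-OE replicate 3. It was also lost when only the 0 h libraries were fitted (adjusted p = 0.223), whereas the 4 h and 6 h values were called in such fits (adjusted p = 0.00711 and 0.00263). The mean over the 4 times stayed called without the library that stood apart (0.31). ZNF598 shares 504 exon bases with the antisense lincRNA AC005606.1.

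ASCC2, whose ubiquitin-binding domain recruits the ASC-1 complex, was higher at 0, 4 and 6 h without overlap. Its level at 0 h was 144, 130.4 and 160.0 CPM in ZC3H7B-OE, against 98.4, 93.7 and 66.0 CPM in control. Its level at 2 h was 106, 94.2 and 83.4 CPM in ZC3H7B-OE, against 99.4, 108 and 69.4 CPM in control, where the lines overlapped. Its level at 4 h was 125, 104 and 124 CPM in ZC3H7B-OE, against 82.3, 89.3 and 96.6 CPM in control, and at 6 h it was 97.5, 107 and 114 CPM in ZC3H7B-OE, against 85.3, 93.6 and 76.4 CPM in control. The mean log2 fold change was 0.37 (SE 0.08, adjusted p = 0.000557). By single time, in the fit of all 24 libraries, ASCC2 was called at 0 h alone, with 0.73 (SE 0.17, adjusted p = 0.00149), and this stayed called at 0.59 without the control library that stood apart. At 2, 4 and 6 h the values were 0.03, 0.40 and 0.32, with adjusted p-values of 0.946, 0.0980 and 0.198. Which times were called depended on the libraries fitted: with those of a single time alone the 0 h call was lost (0.76, adjusted p = 0.0669), while 4 h (0.42, adjusted p = 0.0111) and 6 h (0.36, adjusted p = 0.0212) were called. ASCC3, the helicase of the same complex, had a mean log2 fold change of -0.14 (95% interval -0.41 to 0.13, adjusted p = 0.416), and its libraries overlapped at each of the 4 times.

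LTN1, the ligase that acts on stalled nascent chains, overlapped between the lines at the end of the pulse and was higher in ZC3H7B-OE later. It started at 17.7, 14.0 and 17.3 CPM in ZC3H7B-OE, against 11.3, 16.3 and 18.3 CPM in control, from 20 to 30 reads per library. By 2 h it was at 61.4, 74.4 and 77.8 CPM in ZC3H7B-OE, against 51.0, 32.3 and 53.3 CPM in control. From 2 h on the lines no longer overlapped. By 4 h the libraries held 158, 176 and 172 CPM in ZC3H7B-OE, against 138, 146 and 113 CPM in control. By 6 h they held 227, 218 and 236 CPM in ZC3H7B-OE, against 177, 192 and 153 CPM in control. Among single times LTN1 was called at 2 h, with a log2 fold change of 0.65 (SE 0.18, adjusted p = 0.0195), which was lost in 3 of 6 fits that left out 1 library of that time (adjusted p up to 0.177, without control replicate 2, and also without ZC3H7B-OE replicates 2 and 3). The values at 0, 4 and 6 h were 0.13, 0.35 and 0.39, with adjusted p-values of 0.719, 0.133 and 0.0961, and with the libraries of a single time alone 4 h and 6 h were called (adjusted p = 0.0113 and 0.000979). NEMF, its partner on the large subunit, had 1 to 66 reads per library and a mean log2 fold change of -0.07 (95% interval -0.59 to 0.44, adjusted p = 0.848). NEMF also shares 2250 exon bases with KLHDC2 on the opposite strand, and the sources used here do not state if reads were counted by strand.

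Among the rescue factors, HBS1L had a lower mean over the chase in ZC3H7B-OE, on a call that several alternatives ended. HBS1L had 25.4, 24.1 and 20.8 CPM in ZC3H7B-OE at 0 h, against 31.3, 37.4 and 25.7 CPM in control. HBS1L had 17.2, 25.2 and 35.1 CPM in ZC3H7B-OE at 2 h, against 41.3, 45.2 and 41.4 CPM in control. All 3 libraries of ZC3H7B-OE were below control at both times. At 4 h the lines overlapped, with 36.0, 42.9 and 48.8 CPM in ZC3H7B-OE, against 61.6, 50.3 and 33.8 CPM in control. At 6 h the order was turned round (adjusted p = 0.526), with 69.8, 79.8 and 75.2 CPM in ZC3H7B-OE, against 61.9, 66.3 and 66.5 CPM in control. The mean log2 fold change was -0.29 (SE 0.11, adjusted p = 0.0365). At 0 h it was -0.44 (SE 0.25, adjusted p = 0.172), at 2 h -0.71 (SE 0.23, adjusted p = 0.0480) and at 4 h -0.20 (adjusted p = 0.578). The 2 h call was lost in 5 of 6 fits that left out 1 library of that time (adjusted p up to 0.260), all but that without ZC3H7B-OE replicate 3, with DESeq2's size factors (adjusted p = 0.0530) and with no filter on low counts (adjusted p = 0.0728). The mean was no longer called without 0 h (-0.21, adjusted p = 0.136), without 2 h (-0.13, adjusted p = 0.403) or without 4 h (-0.31, adjusted p = 0.0530). The mean also missed the threshold in 7 of 24 fits that left out 1 library (adjusted p up to 0.0931, without control 4 h replicate 1), and with no filter on low counts (adjusted p = 0.0701). PELO, the partner that enters the empty decoding site, had 7 to 122 reads per library and a mean log2 fold change of 0.01 (95% interval -0.32 to 0.33, adjusted p = 0.984). PELO lies within ITGA1 on the same strand and shares 475 exon bases with it. ABCE1 had 0 to 13 reads per library, 28 reads over the 12 ZC3H7B-OE libraries and 22 over the 12 control libraries, with none in 5 ZC3H7B-OE libraries and 3 control libraries. This is too few to compare lines or times. Few counted reads need not mean little mRNA: PABPC1, the abundant poly(A)-binding protein gene, also averaged only 0.337 CPM in ZC3H7B-OE and 0.322 CPM in control, and whether reads of such genes were lost in counting was not tested.

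**Figure D2:**
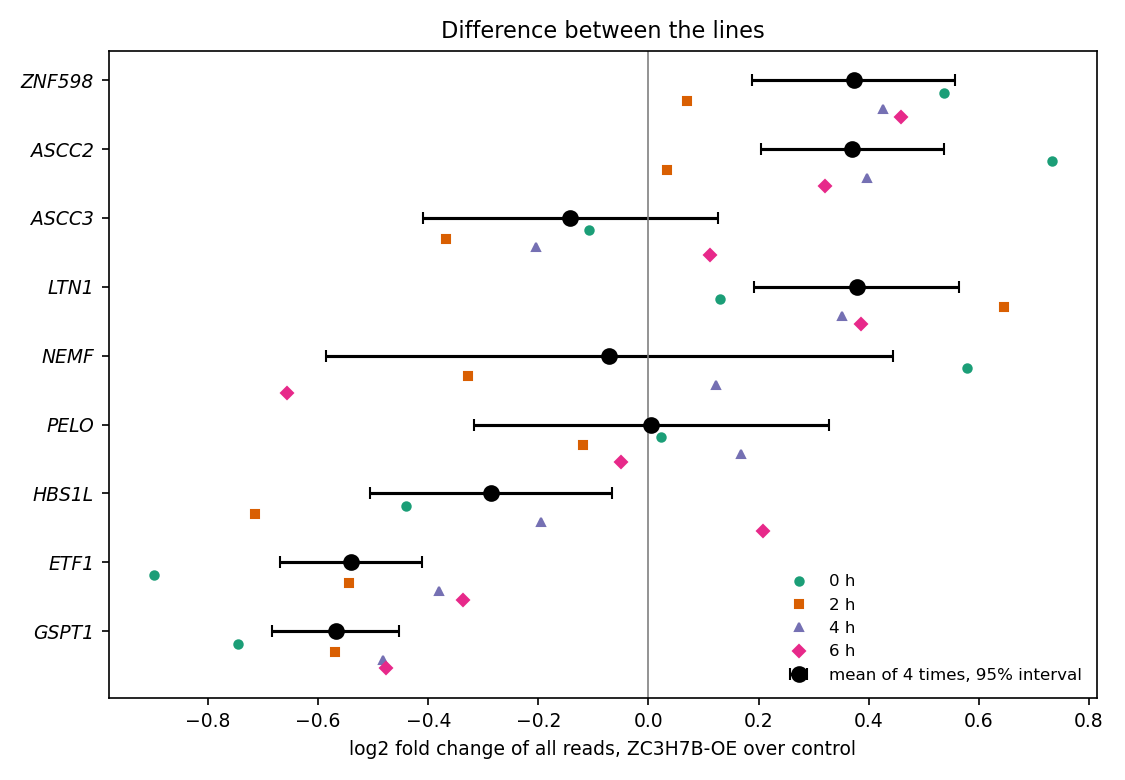
Log2 fold change of all reads, ZC3H7B-OE over control, for the 9 members tested. Black points are means over the 4 times with 95% intervals, and coloured points are the single times. ETF1 and GSPT1 lie left of 0 at all 4 times, ZNF598, ASCC2 and LTN1 lie right of it, and HBS1L lies left at 0, 2 and 4 h and right at 6 h.

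Counted by single time, 2 members rose and 2 fell at 0 h, where 11.7% of entries rose and 19.5% fell. At 2 h 1 member rose and 3 fell, where 2.19% of entries rose and 7.27% fell. At 4 h none rose and 2 fell, where 6.85% rose and 10.8% fell, and at 6 h none rose and 1 fell, where 6.52% rose and 9.25% fell. At an unadjusted p under 0.05 edgeR passed 5 of 9 members at 4 h, where 3096 of 10038 entries passed in either direction. At 6 h it passed 4 members, where 2966 entries passed. Whether a line difference changed along the chase was tested as an interaction of line and time. In edgeR 0 of 9 members passed, where 1.73% of entries did. In DESeq2 0 members passed, where 801 entries did. With an unadjusted p under 0.05 in edgeR were 2 members and 1844 of 10038 entries. ETF1 had an edgeR adjusted p of 0.190, or 0.0459 without control 0 h replicate 2, and HBS1L had 0.237. The members' changes in line difference from hour to hour are therefore descriptions.

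Along the chase, the level of most members rose in both lines. In ZC3H7B-OE, 7 members rose between 0 h and 6 h and 2 fell, where 32.8% of entries rose and 30.6% fell. In control, 7 rose and 1 fell, where 30.7% of entries rose and 29.9% fell. The members' median log2 change was 1.45 in ZC3H7B-OE and 1.10 in control, against -0.08 in ZC3H7B-OE and -0.05 in control over all entries. These are levels relative to the rest of each library, so they do not say whether the amount per cell changed. Depth also went with the hour. Libraries of 0 and 2 h had 1502068 to 2053311 reads, and those of 4 and 6 h had 2480380 to 3676254. The share of labelled reads fell over the same hours, as given below. The part of depth and of labelling in the chase changes was not tested.

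LTN1, at 16.4 CPM in ZC3H7B-OE and 15.3 CPM in control on average at the end of the pulse, had the largest rise of the 9 members tested in both lines, with a log2 change of 3.80 (SE 0.20, adjusted p = 5.8e-17) in ZC3H7B-OE and 3.54 (SE 0.21, adjusted p = 1.0e-15) in control. These are folds of 13.9 in ZC3H7B-OE and 11.6 in control. ASCC3 rose by 2.58 (SE 0.28) in ZC3H7B-OE and 2.36 (SE 0.28) in control. PELO rose by 1.94 (SE 0.34) in ZC3H7B-OE and 2.01 (SE 0.35) in control, and NEMF by 1.27 (SE 0.50) in ZC3H7B-OE and 2.51 (SE 0.53) in control. The NEMF call in ZC3H7B-OE (adjusted p = 0.0253) was lost in 2 of 6 fits that left out 1 library. HBS1L rose by 1.67 (SE 0.23) in ZC3H7B-OE and 1.02 (SE 0.22) in control, ETF1 by 1.45 (SE 0.13) in ZC3H7B-OE and 0.89 (SE 0.13) in control, and GSPT1 by 1.37 (SE 0.12) in ZC3H7B-OE and 1.10 (SE 0.12) in control. The collision sensor ZNF598 went the other way and fell by 0.87 (SE 0.19) in ZC3H7B-OE and by 0.79 (SE 0.19) in control on the log2 scale (adjusted p = 0.000157 in ZC3H7B-OE and 0.000670 in control). ASCC2 fell by 0.45 (SE 0.17, adjusted p = 0.0200) in ZC3H7B-OE and had -0.03 (SE 0.17, adjusted p = 0.879) in control. The ZC3H7B-OE call of ASCC2 was lost with no filter on low counts (adjusted p = 0.0831). It was also lost in 2 of 6 fits that left out 1 library (adjusted p up to 0.0963). Within the ASC-1 complex, ASCC3 thus rose in both lines, ASCC2 did not rise in either, and the partners ASCC1 and TRIP4 missed the threshold in both.

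**Figure D3:**
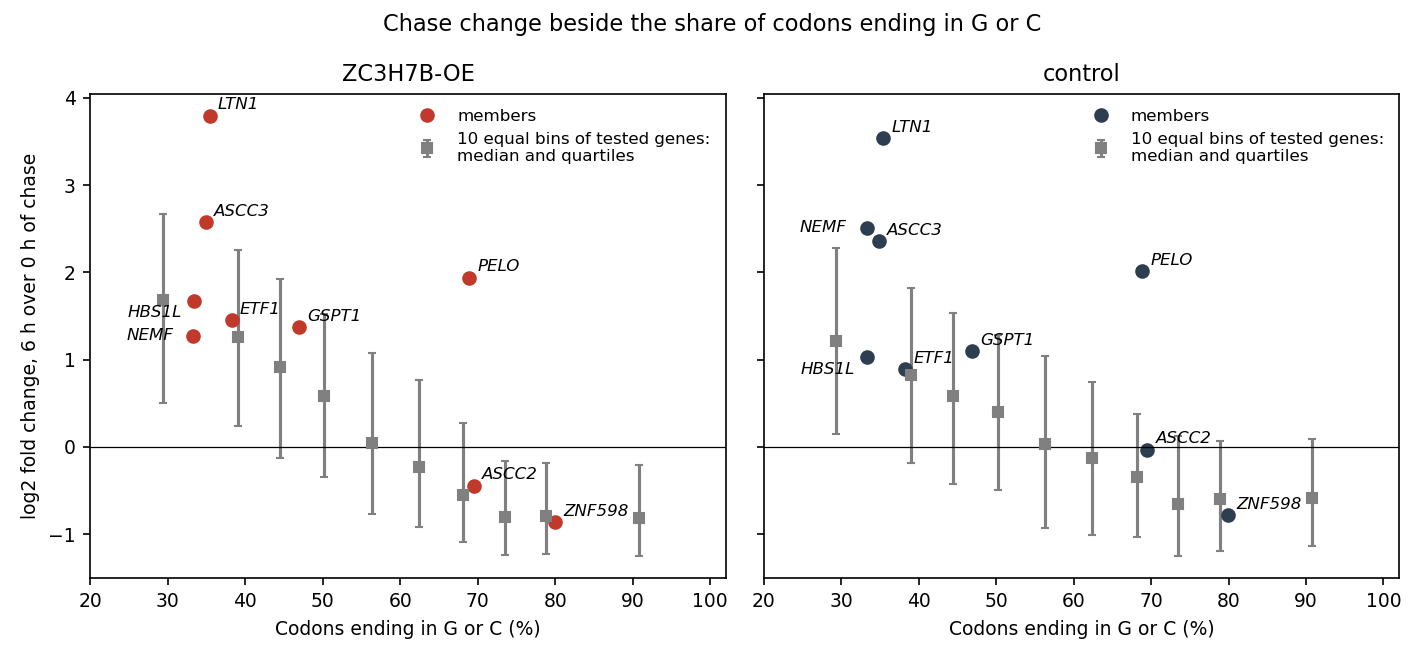
Log2 change of level from 0 h to 6 h of chase against the share of codons ending in G or C, in ZC3H7B-OE (left) and control (right). Grey squares are medians of 10 equal bins of the tested genes with their quartiles, and coloured points are the 9 members. LTN1 and PELO lie above the upper quartile of their bin in both lines, at changes of 3.80 and 1.94 in ZC3H7B-OE and 3.54 and 2.01 in control.

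The share of codons ending in G or C was set beside these changes for 9461 of 9728 tested single-gene entries (97.3%) with a GENCODE v29 coding sequence. Across genes, Spearman's rho between this share and the chase change was -0.53 in ZC3H7B-OE and -0.39 in control, and with the mean line difference it was 0.50. Genes share libraries and base composition and are not independent replicates, so these are descriptions. With genes split into 10 equal bins by this share, the median chase change in the lowest bin was 1.68 in ZC3H7B-OE and 1.21 in control, and in the highest bin it was -0.82 in ZC3H7B-OE and -0.58 in control. The median line difference was -0.46 in the lowest bin and 0.29 in the highest. ZNF598 and ASCC2, with high shares, and ETF1, GSPT1 and HBS1L, with low or middle shares, lay on the side of 0 of these medians in the line difference. LTN1 did not: its share is in the lowest bin, yet its line difference of 0.38 was above that of 80.9% of the genes matched. The uncalled members differed less between the lines than the medians of their bins. ASCC3 had -0.14 and NEMF -0.07 in the lowest bin, and PELO had 0.01 in bin 7, where the median was 0.17. PELO, in bin 7 of 10, had a chase change above that of 85.4% of genes in ZC3H7B-OE and 89.2% in control. LTN1 exceeded 98.4% and 98.5% of genes in chase change.

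The labelled reads were counted to follow RNA made during the pulse, with the limits named above. Over all genes, labelled reads made up 74.8%, 71.8%, 45.5% and 29.6% of reads at 0, 2, 4 and 6 h in ZC3H7B-OE, against 76.7%, 75.7%, 47.7% and 29.9% in control (means of 3 libraries). ETF1 was labelled almost wholly at the end of the pulse, at 92.2%, 95.2% and 94.2% in ZC3H7B-OE, against 95.1%, 93.6% and 92.6% in control. GSPT1 had 89.9%, 89.8% and 89.1% in ZC3H7B-OE, against 94.2%, 90.1% and 95.9% in control. ASCC2 stood out below the library, at 40.7%, 47.8% and 52.3% in ZC3H7B-OE, against 47.3%, 45.7% and 58.3% in control. Many ASCC2 reads thus carried no conversion after 24 h of s4U. By 6 h the labelled share of ASCC2 was 24.0% ± 2.23 in ZC3H7B-OE and 23.7% ± 2.73 in control (SD, n = 3 each). ETF1, from its much higher start, ended at 19.9% ± 1.37 in ZC3H7B-OE and 26.9% ± 0.367 in control.

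**Figure D4:**
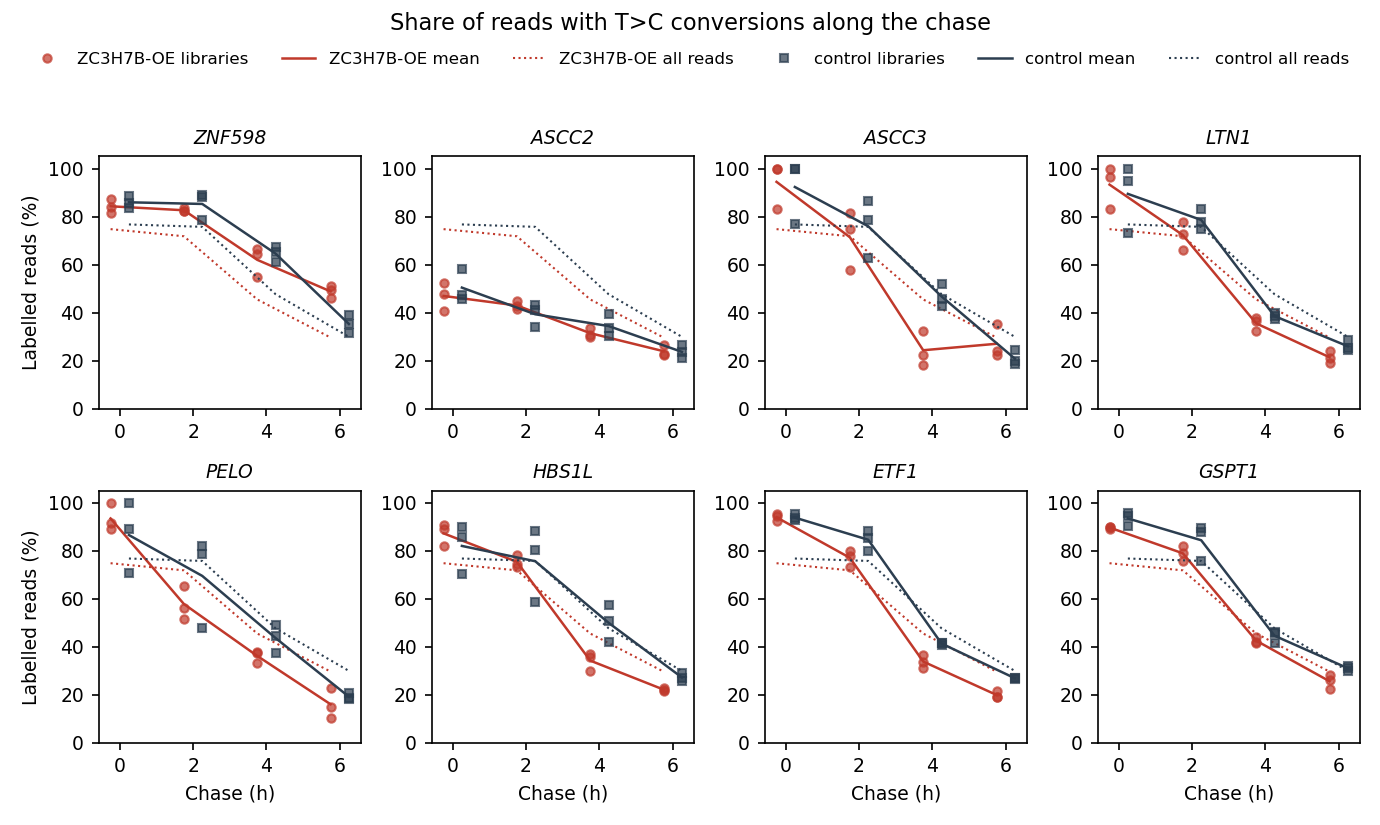
Share of reads with T>C conversions (%) by hour of chase for 8 members in ZC3H7B-OE libraries (circles, left) and control libraries (squares, right), with lines through the means. Dotted lines give the mean share over all reads of a library. ASCC2 lies below the dotted lines at each time, and NEMF and ABCE1, with as few as 1 and 0 reads in a library, are not drawn.

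The labelled share was compared between the lines as the odds of a labelled against an unlabelled read in a gene, in 1 edgeR fit with an intercept for each library. ETF1 differed at 3 of the 4 times. At 2 h its share was 73.4%, 77.8% and 79.9% in ZC3H7B-OE, against 88.3%, 85.3% and 80.1% in control. At 4 h it was 31.1%, 33.7% and 36.7% in ZC3H7B-OE, against 41.6%, 40.7% and 41.7% in control. At 6 h it was 19.2%, 21.5% and 19.1% in ZC3H7B-OE, against 27.1%, 26.5% and 27.1% in control. In each case all 3 ZC3H7B-OE libraries were below control. The log2 odds ratio, ZC3H7B-OE over control, was -0.72 (SE 0.15, adjusted p = 0.000781) at 2 h, -0.47 (SE 0.13, adjusted p = 0.0241) at 4 h and -0.56 (SE 0.13, adjusted p = 0.00224) at 6 h. At 0 h it was 0.03 (SE 0.20, adjusted p = 1). The median over all genes was -0.17, -0.29, -0.15 and -0.03 at 0, 2, 4 and 6 h. Taken relative to the library, the ETF1 value was -0.43 (adjusted p = 0.0786) at 2 h and -0.34 (adjusted p = 0.0888) at 4 h, so both calls were lost, while that at 6 h was kept. The 4 h call was also lost in 5 of 6 fits that left out 1 library of that time (adjusted p up to 0.207).

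ZNF598 went the other way at 6 h, where 49.5%, 50.9% and 46.2% of its reads were labelled in ZC3H7B-OE, against 31.5%, 35.3% and 39.1% in control. The log2 odds ratio was 0.80 (SE 0.26, adjusted p = 0.0377), but it was lost in 5 of 6 fits that left out 1 library of that time (adjusted p up to 0.223, without control replicate 1). At 0, 2 and 4 h it was -0.11, -0.33 and -0.16, none called. GSPT1 had -0.65, -0.58, -0.12 and -0.38 at 0, 2, 4 and 6 h, none called, and without control replicate 3 the 2 h value was -1.08 (adjusted p = 5.8e-05). In ASCC3 at 4 h 18.4%, 32.2% and 22.5% of reads were labelled in ZC3H7B-OE, against 42.7%, 45.8% and 51.7% in control, with a log2 odds ratio of -1.48 (SE 0.49, adjusted p = 0.0789) that missed the threshold.

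By count, 0 of 9 members passed at 0 h in edgeR, where 0.907% of entries passed in either direction. With an unadjusted p under 0.05 at 0 h were 1 member and 1014 of 10038 entries. At 2 h 1 member fell and none rose, where 4.97% of entries fell and 0.0797% rose. At 4 h 1 member fell and none rose, where 3.17% fell and 0.219% rose. At 6 h 1 fell and 1 rose, where 2.74% fell and 3.48% rose.

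The loss of labelled reads was fitted as a slope over the chase, in log2 units per h, with the library sizes of all reads. On this scale the median over 8713 entries was -0.24 in ZC3H7B-OE and -0.26 in control, and a member's slope is best read against that median. Labelled reads of the collision sensor ZNF598 fell at -0.28 (SE 0.04) per h in ZC3H7B-OE and -0.36 (SE 0.05) in control, and those of ASCC2 at -0.22 (SE 0.04) in ZC3H7B-OE and -0.17 (SE 0.04) in control. Those of ETF1 fell at -0.14 (SE 0.03) in ZC3H7B-OE and -0.16 (SE 0.03) in control, less steeply than the median. HBS1L had -0.06 (SE 0.05, adjusted p = 0.228) in ZC3H7B-OE and -0.11 (SE 0.05, adjusted p = 0.0470) in control. GSPT1 had -0.07 (SE 0.04, adjusted p = 0.104) in ZC3H7B-OE and -0.08 (SE 0.04, adjusted p = 0.0407) in control. The HBS1L call was lost in 12 and the GSPT1 call in 4 of 24 fits that left out 1 library (adjusted p up to 0.142 without control 6 h replicate 1, and up to 0.148 without control 6 h replicate 3). Both control calls were also lost with no filter on low counts (adjusted p = 0.0942 for HBS1L and 0.0707 for GSPT1). With the library sizes of labelled reads, the slopes of ETF1, GSPT1 and HBS1L turned positive in both lines, from 0.09 to 0.17 per h, and all 6 were called. ASCC2 then had 0.0099 (adjusted p = 0.881) in ZC3H7B-OE and 0.071 (adjusted p = 0.171) in control, so its falls were lost, and ZNF598 had -0.045 (adjusted p = 0.337) in ZC3H7B-OE, no longer called. Of the falls described here, those of ETF1, GSPT1, HBS1L and ASCC2 thus depend on scaling to all reads. So does the ZNF598 call in ZC3H7B-OE.

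Labelled reads of LTN1 rose, at 0.23 (SE 0.07, adjusted p = 0.00409) per h in ZC3H7B-OE and 0.27 (SE 0.07, adjusted p = 0.00105) in control. For 0, 2, 4 and 6 h, labelled LTN1 averaged 15.2 ± 1.94, 51.5 ± 8.12, 60.1 ± 7.94 and 48.5 ± 3.96 CPM in ZC3H7B-OE (SD, n = 3 each). In control it averaged 13.5 ± 3.38, 36.0 ± 10.2, 51.1 ± 7.71 and 44.9 ± 1.96 CPM. Labelled LTN1 was thus higher after 2 h and 4 h than at the end of the pulse, and labelling after the pulse or background conversions were not tested. No rise was called once 0 h was left out: over 2 to 6 h alone the slope was -0.04 (adjusted p = 0.520) in ZC3H7B-OE and 0.06 (adjusted p = 0.280) in control. Scaled to all reads, ASCC3, NEMF and PELO had no called slope in either line over 0 to 6 h. With the library sizes of labelled reads, ASCC3 was called as rising, at 0.32 in ZC3H7B-OE (adjusted p = 5.6e-05) and 0.27 in control (adjusted p = 0.00100). NEMF was then called as rising in control, at 0.45 (adjusted p = 0.00147). Over 2 to 6 h, again scaled to all reads, PELO was called at -0.31 in ZC3H7B-OE and -0.34 in control and ASCC3 at -0.21 in control (adjusted p = 0.0255). Over these hours GSPT1 in ZC3H7B-OE was called as well, at -0.19 (adjusted p = 1.2e-05), against the uncalled -0.07 over 0 to 6 h. Over 0 to 6 h and scaled to all reads, 1 member rose and 3 fell in ZC3H7B-OE, where 1.99% of entries rose and 72.6% fell. In control 1 rose and 5 fell, where 1.88% rose and 75.6% fell.

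**Figure D5:**
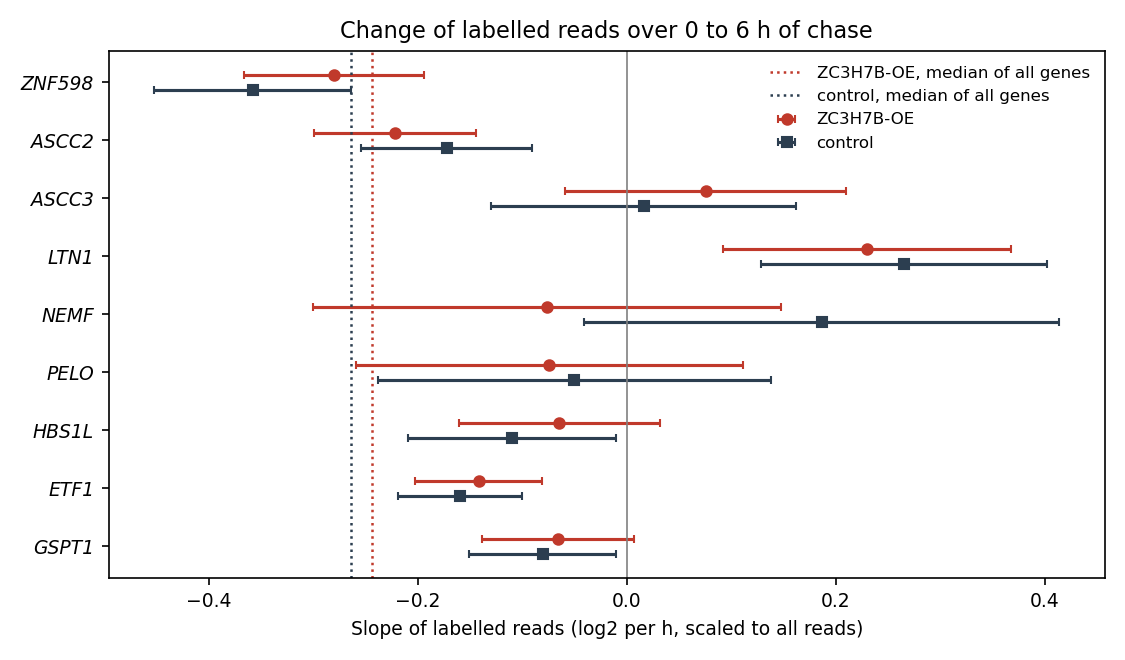
Slope of labelled reads over 0 to 6 h of chase (log2 per h, scaled to all reads) for the 9 members tested, in ZC3H7B-OE (circles, above) and control (squares, below), with 95% intervals. Dotted lines are the medians of all genes. LTN1 lies right of 0 in both lines, and the intervals of the lines overlap for each member.

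No difference in slope between the lines was called for any member in edgeR: 0 of 9 passed and 0 had an unadjusted p under 0.05. Of all entries 0 (0%) passed, with 479 at an unadjusted p under 0.05. A test that called 0 entries cannot show that the members' slopes were alike. Over 2 to 6 h alone, 63 entries and 0 members were called. The differences bound the effect unevenly. For ETF1 the slope in ZC3H7B-OE minus control was 0.02 per h (95% interval -0.07 to 0.10) and for GSPT1 0.01 (-0.09 to 0.12). For LTN1 it was -0.04 (-0.23 to 0.16), for ZNF598 0.08 (-0.05 to 0.21) and for NEMF -0.26 (-0.58 to 0.06).

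Of 53 other genes of these pathways, 52 were in the table, 39 passed the filter, 10 rose and 11 fell in ZC3H7B-OE averaged over the chase. Over all entries tested 20.4% rose and 25.4% fell, close to the 10 and 11 of 39 here, and the median log2 fold change was 0.09, against 0.01 over all entries. The lists that follow hold 2 to 14 tested genes each, and their counts are descriptions to be read against those shares. Among 14 genes of collision sensing and repression, 5 rose and 2 fell. OTUD3, a deubiquitinase that removes the mark ZNF598 places, had 0.45 (SE 0.08, adjusted p = 2.2e-05), and UBE2D3, a ubiquitin-conjugating enzyme, had -0.83 (SE 0.09, adjusted p = 3.5e-09). Of the 2 other ASC-1 subunits listed, ASCC1 fell by 0.51 (SE 0.13, adjusted p = 0.00197) on the log2 scale. In ribosome-associated quality control 2 of 6 rose and 2 fell. Both that fell, RCHY1 at -0.75 (SE 0.14, adjusted p = 9.2e-05) and KLHDC10 at -0.39 (SE 0.07, adjusted p = 1.5e-05), encode E3 ligase components that recognise alanine tails added by NEMF.

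Among 4 tested rescue GTPases and SKI subunits, 1 rose and none fell: SKIV2L, the helicase that feeds mRNA to the exosome, had 0.49 (SE 0.14, adjusted p = 0.00493). In collision signalling 1 of 3 rose and 2 fell. IMPACT, an inhibitor of GCN2 activation, fell by 1.14 (SE 0.13, adjusted p = 1.4e-08) and RNF14, an E3 ligase that acts on stalled ribosomes with a trapped factor, by 0.87 (SE 0.17, adjusted p = 8.8e-05) on the log2 scale. In the list of termination and maturation of ABCE1 or ETF1, none of 7 rose and 3 fell. N6AMT1, which methylates ETF1, had -0.36 (SE 0.09, adjusted p = 0.00186), and ORAOV1 (LTO1), which helps load the iron-sulfur clusters of ABCE1, had -0.41 (SE 0.10, adjusted p = 0.00117). Of the mitochondrial factors 1 of 3 rose and 1 fell: C12orf65 (MTRFR), a mitochondrial rescue factor, had 0.30 (SE 0.06, adjusted p = 0.000294), and MTRF1L, a mitochondrial release factor, had -0.38 (SE 0.08, adjusted p = 0.000116).

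Across the 24 libraries, which share the chase and the lines, ETF1 and GSPT1 varied together (Pearson r = 0.96 of log2 CPM), as did LTN1 and ASCC3 (r = 0.95). ZNF598 ran against ETF1 (r = -0.85). Among the 4575 genes whose mean log2 CPM reached 5, the profile most like that of ETF1 was NAMPT (r = 0.98) and that of GSPT1 was DNAJA1 (r = 0.97). For ZNF598 it was CLUH (r = 0.96), for LTN1 SMEK1 (r = 0.98), for ASCC3 RFWD3 (r = 0.97) and for PELO RSBN1 (r = 0.94). For HBS1L it was NIPA1 (r = 0.92), for ASCC2 AC104841.2 (r = 0.91) and for NEMF PRDM10 (r = 0.87). These correlations follow what the libraries share and are given as descriptions.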

How the data were processed

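The authors deposited 2 tables of whole-number read counts per gene for 24 libraries, one counting every read and the other counting those that carry T>C conversions, neither normalized. Per the submitters' processing notes, fastp was used and the genome build was GRCh37. No source used here names the aligner or the conversion caller, how many conversions make a read labelled, or the use of strand in counting. Libraries were directional and poly(A)-selected, per the labels' protocols. The tables hold 19692 entries, of which 450 name several genes and took 2.30% to 3.69% of a library's reads. These stayed in library sizes and tests.

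All reads were fitted with edgeR 4.0.16 (R 4.3.3): quasi-likelihood with robust estimation, 8 group means over 24 libraries, TMM scaling and filterByExpr with a minimum count of 10. P-values carry a Benjamini-Hochberg adjustment over all entries tested, with a threshold of 0.05, and SE is the log2 fold change divided by the square root of the F statistic. The 95% intervals are normal intervals from that SE. The fit of labelled reads kept the sizes and TMM scaling of the full libraries and estimated a slope over hours in each line. The labelled share was fitted on labelled and unlabelled counts of each library with 1 intercept per library. The mean and 4 h line differences, the slope difference and the labelled odds at 4 h were tried on simulated counts. Those counts had the same dispersion for all genes and no library that stood apart, unlike these data. The outcome is not used here, and the chase, interaction and single-line slope results were not simulated. DESeq2 1.42.0 and limma 3.58.1 (voom) were alternatives. Depth ran from 1502068 to 3676254 reads, so members at a few reads a library allow no comparison, and intervals rest on reads without molecular identifiers. Replicates were no duplicates: a chi-square comparison of their counts gave 2.28 to 7.02 per degree of freedom, apart from pairs with control 0 h replicate 3. Those pairs, with the library that stood apart, gave 27.7 and 30.4. Coding sequences and exon overlaps came from GENCODE v29 on GRCh38, a build other than that of the tables, so no coordinates are given.

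The members, the pathway lists and the tests were chosen with earlier results of these data known. The rule for naming genes took all 10 members, up to 2 called genes with the smallest adjusted p from each pathway list, the 1 gene with the most similar profile to each member, and ZC3H7B. GSPT2, TRIP4, exon neighbours and cell type markers are named beside these as limits.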

Additional observations from a re-analysis of the deposited data

How the results depend on the processing

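The directions of the mean line difference held for ZNF598, ASCC2, LTN1, ETF1 and GSPT1 under each alternative run, namely DESeq2's size factors, DESeq2's test, limma voom, no filter, the replicate block, the mean without each time and each fit without 1 library, and so did their calls. The HBS1L calls were lost as given in the report. With the libraries of 1 time alone, 2 members passed at 0 h (791 entries), 5 at 4 h (3104) and 5 at 6 h (3286). These fits estimate the spread from 6 libraries, and the members called were not the same: ZNF598 and ASCC2 were lost at 0 h, and ZNF598, ASCC2 and LTN1 were gained at 4 and 6 h and ETF1 at 6 h. At 4 h 1 member passed with no filter, and DESeq2 passed 2 at 6 h. For the interaction of line and time, 801 entries passed in DESeq2 and 942 with no filter. The cause of these moves was not tested.

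With library sizes of labelled reads, which remove the common fall by construction, 2501 entries had a called slope in ZC3H7B-OE and 3126 in control, and 2 differed in slope between the lines. Slopes that were negative then turned positive, in ZC3H7B-OE for ASCC2 (0.0099, not called), HBS1L (0.17), ETF1 (0.097) and GSPT1 (0.17), and in control for ASCC2 (0.071, not called), HBS1L (0.14), ETF1 (0.086) and GSPT1 (0.16). ZNF598 stayed negative in ZC3H7B-OE at -0.045 and lost its call (adjusted p = 0.337). Calls of a rise were gained for ASCC3 (0.32 in ZC3H7B-OE and 0.27 in control) and for NEMF in control (0.45). Over 2 to 6 h, 63 entries differed in slope, LTN1 had -0.036 in ZC3H7B-OE, ASCC3 had -0.21 in control and GSPT1 was called in ZC3H7B-OE (-0.19). Relative to the library, the labelled odds gave 49 entries at 0 h, 138 at 2 h with 0 members, and 0 members at 4 h.

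Leaving out 1 library gave 2 to 3 members at 2 h (575 to 845 entries), 1 to 2 at 4 h (1035 to 1566) and 891 to 1239 entries at 6 h. The interaction gave 0 to 1 members (48 to 709 entries), and the 1 member was ETF1 without control 0 h replicate 2 (adjusted p = 0.0459). The slope difference gave 0 to 1 entries. The labelled odds gave 35 to 78 entries at 0 h, 1 to 2 members at 2 h (247 to 912 entries), 0 to 1 at 4 h (170 to 235) and 1 to 2 at 6 h (373 to 463).

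Between the lines at the same hour, same-numbered libraries showed little pairing in their deviations from the group means. Of these pairs 1 of 12 correlated over 0.1, and r ran from -0.12 to 0.21. Same-numbered libraries of different hours were not compared, so a pairing along the chase was not tested. With a replicate block 6 members passed in the mean line difference (4541 entries) and 3 at 2 h, where HBS1L was lost (adjusted p = 0.0584), as was its control slope (adjusted p = 0.0571). No other call of a member changed with the replicate block.

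Few counted reads limit ABCE1 throughout, and NEMF, PELO and ASCC3 at 0 h, where libraries held 1 to 23 reads of each. Whether reads were lost in counting was not tested.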
